A study of Oryctolagus cuniculus with 6 samples.

Results

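Transcripts of red blood cells and leukocytes were followed through preparations of rabbit basilar artery smooth muscle cells. The set holds 7 genes, the globin gene HBB2, the heme enzyme gene ALAS2, the B cell gene CD79B, the lymphocyte receptor gene IL7R, the leukocyte gene PTPRC, and the macrophage-associated genes CD68 and LGALS3. They were found by gene name or full protein name in the annotation of the array and are read by 12 of its 43603 probes, out of 10638 genes with a name. These genes were proposed with their values on these same arrays known, so their levels and differences are a description, and no p-value of theirs is given.

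The ligated group comprised female New Zealand White rabbits in which both common carotid arteries were tied, which raises flow through the basilar artery. In the sham group the same vessels were exposed and not tied. In both groups the basilar artery was taken on day 5, perfused with elastase at 0.4 mg/ml and collagenase at 1 mg/ml for 45 min, and triturated to release the smooth muscle cells, without a sort or gate named in the labels. The labels give n = 3 rabbits per group and 1 one-colour array per replicate, and do not say whether an array holds 1 animal or a pool, nor the age of the rabbits, so that p-values measure the spread between these arrays.

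Red blood cells carry hemoglobin, and their young forms still hold globin mRNA together with the mRNA of the erythroid enzyme that starts heme synthesis. Leukocytes of all lineages carry the phosphatase CD45, B cells carry an antigen receptor with CD79 chains, and many T cells carry the receptor for interleukin 7. A normal cerebral artery has few immune cells in its wall, whereas macrophages are known to enter arterial walls under strong hemodynamic load. In bulk RNA, fewer cells of a type and less RNA per cell cannot be told apart.

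The 60-base probes that stand for the genes are shown because each level below is the brightness of 1 of them, 5′ to 3′ in the sense of the transcript. In LGALS3 capitals mark the 56 bases that all 5 of its overlapping probes share, and lower case is used elsewhere.
HBB2: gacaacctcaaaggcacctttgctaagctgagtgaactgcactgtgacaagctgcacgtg
ALAS2: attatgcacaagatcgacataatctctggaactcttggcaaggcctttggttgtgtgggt
CD79B: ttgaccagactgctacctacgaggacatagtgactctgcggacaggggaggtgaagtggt
IL7R: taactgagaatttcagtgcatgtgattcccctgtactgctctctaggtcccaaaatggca
PTPRC: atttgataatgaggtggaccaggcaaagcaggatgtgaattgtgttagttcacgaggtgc
CD68: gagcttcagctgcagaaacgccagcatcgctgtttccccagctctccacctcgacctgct
LGALS3: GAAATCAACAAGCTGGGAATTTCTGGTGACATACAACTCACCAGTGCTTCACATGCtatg

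On the build oryCun2, the array's annotation places the HBB2 probe at chr1:146237830-146237889 on the minus strand and the CD79B probe at chr19:48736050-48736109 on the minus strand. The CD68 probe lies on the same chromosome at chr19:11599137-11599196, also on the minus strand. The PTPRC probe is given at chr16:72476050-72476109 on the minus strand and the LGALS3 probe at chr17:73827307-73827366 on the plus strand. The ALAS2 probe covers chrX:36434483-36435107 on the minus strand, a span of 625 bases that is longer than the probe. The IL7R probe covers chr11:57174609-57174671 on the plus strand, a span of 63 bases. No exon or UTR annotation of this build was used here.

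Levels are log2 of the processed signal minus the 75th percentile of the same array, so that 0 is the signal at that percentile, and levels of different probes are not set against each other. Between 58.7% and 63.7% of probes were well above background on an array and no spot was saturated. The 3 ligated arrays shared slide 2 and the 3 sham arrays slide 1, and an effect of the slide cannot be told apart from one of ligation. Sham arrays 2 and 3 were close to each other, with a median absolute difference of 0.159 log2 over all tested probes against 0.358 to 0.596 for the other pairs, and sham array 3 was scanned on another day. The labels number them as separate replicates, but whether they come from separate rabbits was not settled here, so the n of 3 sham arrays may count them as more independent than they are. With their mean taken as 1 sample, limma called 587 probes in place of 2280 and none of the 7 genes. All 13 tested smooth muscle marker genes were well above background on all 6 arrays, so the labelled cell type was present throughout.

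The main pattern of the blood-cell genes was a difference between arrays of the same group. Ligated array 3 was the highest of the ligated arrays in 6 of the 7 genes, where 35.5% of all tested probes had it highest. Sham array 1 was the lowest sham array in 7 of 7 genes, where 35.7% of all tested probes had it lowest. Sham arrays 2 and 3 differed by at most 0.27 log2 in any of the genes. The ranges of the groups overlapped in 5 genes, and in the other 2, IL7R and LGALS3, every ligated array was higher than every sham array. Among all tested probes 34.7% had groups that did not overlap, 17.6% with ligated and 17.2% with sham arrays on the higher side.

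**Figure D1:**
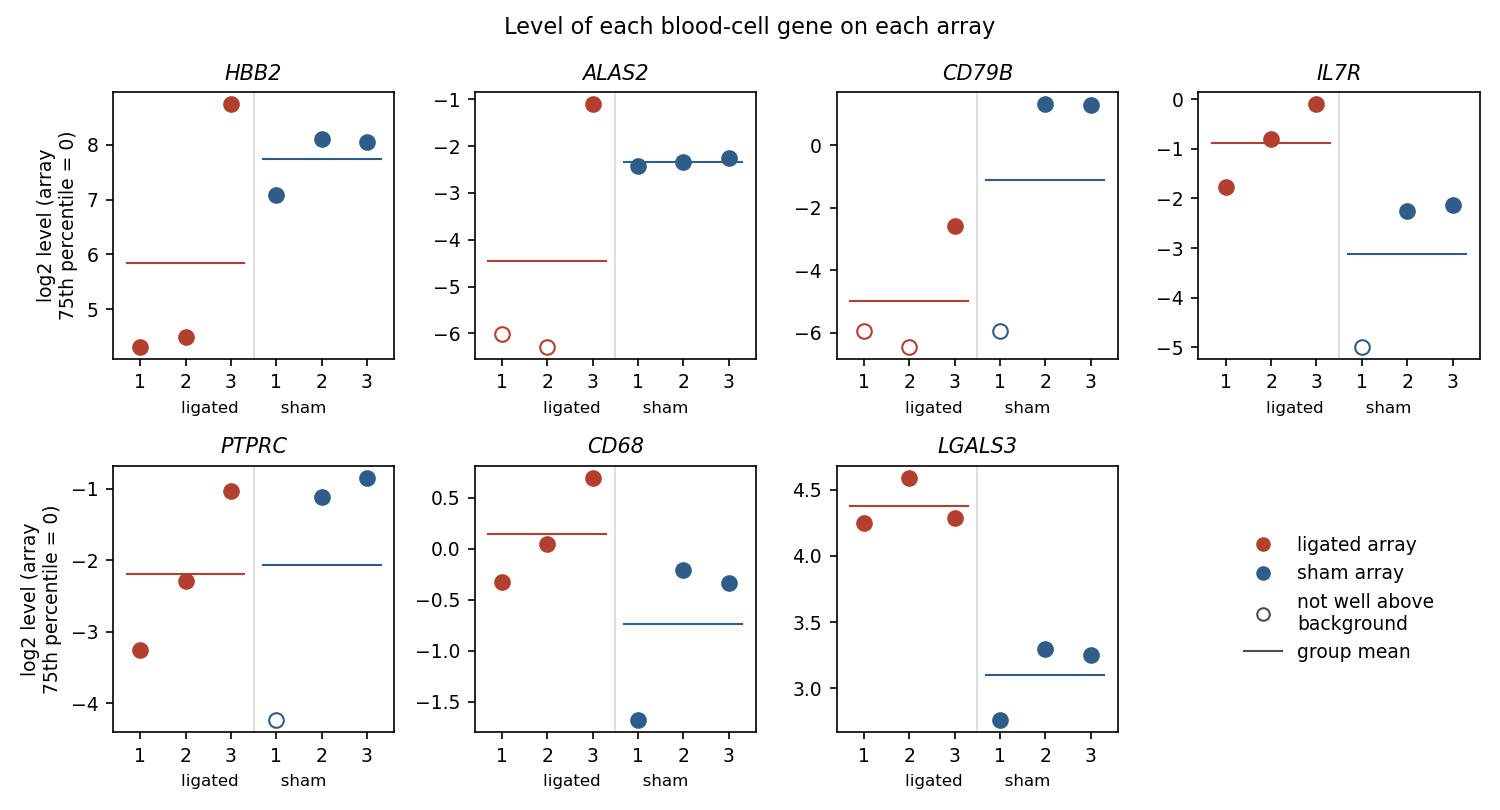
Level of each of the 7 genes on each array, as log2 of the processed signal minus the array's 75th percentile, with ligated arrays (red) left of sham arrays (blue), open circles where the probe was not well above background and a line at each group mean. Ligated array 3 and sham arrays 2 and 3 are high for CD79B and PTPRC, ligated array 3 and all sham arrays for HBB2 and ALAS2, and LGALS3 separates the groups.

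Erythroid transcripts split the ligated arrays. HBB2, which encodes the beta chain of hemoglobin, had levels of 4.32, 4.50 and 8.74 on ligated arrays 1, 2 and 3, against 7.08, 8.10 and 8.04 on sham arrays 1, 2 and 3. Ligated array 3 was the highest of all 6 and 21.4-fold above ligated array 1, whereas ligated arrays 1 and 2 lay below every sham array. The mean was 5.85 ± 2.50 in ligated and 7.74 ± 0.57 in sham arrays (SD, n = 3 each), a ligated minus sham difference of -1.89 ± 1.17 (SE). Among tested probes 98.9% had a smaller SD over the ligated arrays. A second HBB2 probe, made from an expressed sequence tag whose stated position runs on the opposite strand, gave 0.24, -0.01 and 3.27 on ligated arrays against 1.76, 2.72 and 2.77 on sham arrays, in the same order of high and low arrays apart from a switch within ligated arrays 1 and 2 and within sham arrays 2 and 3. Beta-like globin genes are close in sequence to each other, and whether these probes also bind other members of the family was not tested.

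ALAS2 encodes the erythroid form of the enzyme that makes aminolevulinic acid, the entry step to heme. Its levels were -6.01, -6.29 and -1.10 on ligated arrays, against -2.43, -2.34 and -2.26 on sham arrays. It was not well above background on ligated arrays 1 and 2. The level on ligated array 3 was at least 11.5-fold that on ligated array 1 and at least 21.9-fold that on ligated array 2, with each dim array set to the lowest level among its probes well above background. Sham arrays were close to each other (SD 0.09, n = 3), and ligated arrays were not (SD 2.92, n = 3). The difference was -2.12 ± 1.32 (SE), and 0.36 after normexp background correction, so its direction depends on that setting. Over the 6 arrays HBB2 and ALAS2 had a Pearson correlation of 0.98, given as a description since arrays of a group share a slide.

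The alpha globin gene HBA, no member of the set, had the same order of arrays, with 3.08, 3.12 and 7.90 on ligated arrays against 5.74, 6.85 and 6.74 on sham arrays. These are values of the brightest of its 9 probes, of which 3 were tested and 5 were not well above background on any array. The HBA difference of -1.74 ± 1.29 (SE) did not pass limma's test (Benjamini-Hochberg adjusted p = 0.417 over all tested probes). Of 27413 tested probes, limma called 2280 at an adjusted p under 0.05, 8.32%, with 1555 higher (5.67%) and 725 lower (2.64%) in ligated arrays. Among the 7 tested genes of the erythroid list other than HBB2 and ALAS2, 0 passed in either direction by limma and 1 had an unadjusted p under 0.05, as 27.3% of all tested probes had. Their median difference was -0.32, against 0.01 over all tested probes. Ligated array 3 was the highest ligated array in 6 of the 7 and sham array 1 the lowest sham array in 5. HEMGN, also on the list, was named after its values were seen. Its 1 tested probe of 3 had levels of -5.65, -5.62 and -2.22 on ligated arrays against -3.74, -2.88 and -3.27 on sham arrays. As with ALAS2, it was not well above background on ligated arrays 1 and 2. The erythroid anion exchanger SLC4A1 and the Rh-associated glycoprotein RHAG were not well above background on any array.

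Heme synthesis is needed by every cell with mitochondria, so its other enzymes are not particular to red cells. Of 12 tested genes of the heme synthesis list other than ALAS2, 0 passed in either direction by limma and 3 had an unadjusted p under 0.05. Their median difference was -0.26. The list also holds HMOX2, BLVRA and BLVRB, which act in heme breakdown and not in synthesis, with differences of 0.36, -0.12 and 0.12. ALAD, the enzyme after ALAS2 in the pathway, had levels of 2.34, 2.72 and 3.38 on ligated arrays against 3.72, 3.86 and 3.69 on sham arrays, a difference of -0.94 ± 0.29 (SE, limma adjusted p = 0.096). ALAS1, the form used outside red cells, differed by -0.43 ± 0.36 (SE, limma adjusted p = 0.474). Neither shows the wide gap between ligated array 3 and the other ligated arrays that HBB2, HBA and ALAS2 had.

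B cell transcripts split the sham arrays. CD79B encodes the beta signalling chain of the B cell antigen receptor. Its levels were -5.94, -6.45 and -2.60 on ligated arrays, against -5.97, 1.32 and 1.30 on sham arrays. It was well above background on ligated array 3 and sham arrays 2 and 3 only. Sham array 2 was at least 46.6-fold and sham array 3 at least 46.0-fold above sham array 1. Sham arrays 2 and 3 were also 15.1-fold and 14.9-fold above ligated array 3. The difference was -3.88 ± 2.12 (SE), with SDs of 2.09 in ligated and 4.20 in sham arrays (n = 3 each), and 98.9% of tested probes had a smaller SD over the sham arrays. These values rest on dim readings of ligated arrays 1 and 2 and sham array 1, which are bounds. After normexp background correction the CD79B difference was -0.39, so its size depends on that setting.

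Immunoglobulin probes, gathered by their descriptions after the files had been seen, followed the same arrays. Of 100 probes for the mu heavy chain, the chain of the first antibody class a B cell makes, 2, 3 and 16 were well above background on ligated arrays 1, 2 and 3, against 0, 22 and 21 on sham arrays. Of 83 probes for other immunoglobulin chains, 17, 17 and 33 were well above background on ligated arrays, against 12, 47 and 46 on sham arrays. The median level of the 34 of these that were tested was -4.09, -4.93 and -0.18 on ligated arrays, against -4.80, 2.97 and 2.83 on sham arrays. Several of the 34 passed the filter of 3 arrays only through ligated array 3 and sham arrays 2 and 3. High medians on those arrays are thus in part set by the filter, whereas the counts above are over all probes. Many of the immunoglobulin probes were designed on rearranged clones that share variable and constant segments, so they are not separate genes. A probe for the kappa light chain of the b9 allotype, chosen as a bright one after its values were seen and placed at chr2:98926533-98926592 on the plus strand of oryCun2, had levels of 3.49, 4.21 and 10.16 on ligated arrays against 4.48, 11.13 and 10.43 on sham arrays.

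**Figure D2:**
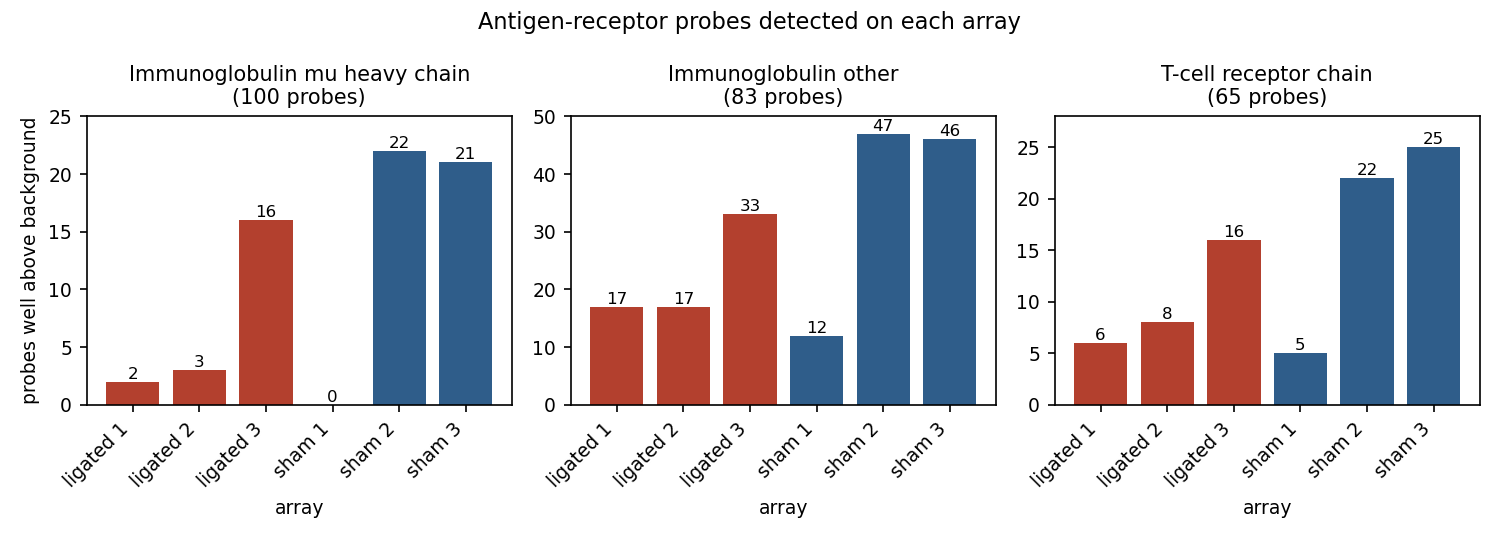
Number of probes well above background on each array for immunoglobulin mu heavy chains (of 100), other immunoglobulin chains (of 83) and T-cell receptor chains (of 65), ligated arrays in red left of sham arrays in blue. Ligated array 3 and sham arrays 2 and 3 hold the high counts in each panel, with 22 and 21 mu chain probes on sham arrays 2 and 3 and 0 on sham array 1.

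Other B cell genes shared this order of arrays only in part. Of the 6 tested genes of the B cell list other than CD79B, 0 passed by limma in either direction and 0 had an unadjusted p under 0.05, with a median difference of -0.11. Ligated array 3 was the highest ligated array in 4 of them and sham array 1 the lowest sham array in 3. MS4A1, the B cell surface antigen CD20, named after its values were seen, had levels of -2.58, -2.45 and -2.09 on ligated arrays against -1.67, -2.54 and -4.02 on sham arrays, so that sham array 1 was the highest of all 6. BLNK, an adaptor that couples the B cell receptor to its downstream kinases, had levels of -0.81, 0.25 and 1.01 on ligated arrays against -1.14, 1.11 and 1.09 on sham arrays. BTK and POU2AF1, also on the list, were likewise named after their values were seen. BTK had -4.95, -4.35 and -2.86 on ligated arrays against -5.68, -2.39 and -2.24 on sham arrays. It was well above background only on ligated array 3 and sham arrays 2 and 3, as CD79B was. POU2AF1, not among the tested genes, was well above background only on sham arrays 2 and 3. TNFRSF13C, the receptor for the B cell survival factor BAFF, had -1.74, -2.63 and -2.53 on ligated arrays against -3.54, -1.55 and -1.79 on sham arrays. The B cell genes CD22, BLK and CD72 were not well above background on any array, CD72 by the brightest of its 3 probes. Of 8 tested partners of the receptors in the set, kinases and adaptors that act beside CD79B, IL7R or PTPRC, 0 passed by limma and 1 had an unadjusted p under 0.05, with a median difference of -0.20. The kinase JAK1, which signals for the interleukin 7 receptor, differed by 0.18 ± 0.18 (SE, limma adjusted p = 0.537).

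IL7R departed from the B cell pattern. It encodes the alpha chain of the interleukin 7 receptor, which keeps naive and memory T cells alive. Its levels were -1.77, -0.81 and -0.10 on ligated arrays, against -4.99, -2.25 and -2.13 on sham arrays. It was not well above background on sham array 1, and every ligated array lay above every sham array. The smallest gap, between ligated array 1 and sham array 3, was 0.36 log2. The difference was 2.23 ± 0.84 (SE), with means of -0.89 ± 0.84 in ligated and -3.12 ± 1.62 in sham arrays (SD, n = 3 each). Without sham array 1 the difference was 1.30, and after normexp background correction of all arrays it was 0.80.

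Other T and NK cell genes did not separate the groups in this way. Of 17 tested genes of the list other than IL7R, 0 passed by limma in either direction and 0 had an unadjusted p under 0.05, with a median difference of -0.22. Sham array 1 was the lowest sham array in 17 of 17, and ligated array 3 the highest ligated array in 12. Of the 17, 9, 13 and 16 were well above background on ligated arrays, against 6, 17 and 17 on sham arrays. The filter of 3 arrays may thus have a part in this order. CD3D, a signalling chain of the T cell receptor, had levels of -1.53, -1.33 and 0.76 on ligated arrays against -1.80, 0.44 and 0.68 on sham arrays. LEF1, a transcription factor of naive T cells that other cell types also use, had 1.90, 1.37 and 2.52 on ligated arrays against 1.01, 1.57 and 1.57 on sham arrays. Of 65 probes for T-cell receptor chains, 6, 8 and 16 were well above background on ligated arrays and 5, 22 and 25 on sham arrays. Ligated arrays 1 and 2 thus lay above sham arrays 2 and 3 for IL7R and below them for CD3D.

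PTPRC encodes CD45, a phosphatase on the surface of leukocytes of every lineage. Its levels were -3.25, -2.29 and -1.04 on ligated arrays, against -4.24, -1.11 and -0.85 on sham arrays. It was not well above background on sham array 1, which lay at least 8.63-fold below sham array 2. Ligated array 3 and sham arrays 2 and 3 were within 0.27 log2 of each other. The means were -2.19 ± 1.11 in ligated and -2.07 ± 1.88 in sham arrays (SD, n = 3 each), and the difference was -0.13 ± 1.00 (SE). This difference was -1.21 without sham array 1 and 0.48 without sham array 3.

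Genes shared by most leukocytes mostly kept that order of arrays. Of 14 tested genes of the list other than PTPRC, 0 passed by limma in either direction and 2 had an unadjusted p under 0.05, with a median difference of -0.08. Ligated array 3 was the highest ligated array in 13 of them and sham array 1 the lowest sham array in 12. ITGB2, the common beta chain of the leukocyte integrins, had levels of 1.16, 1.74 and 3.07 on ligated arrays against 1.09, 2.92 and 2.79 on sham arrays. CD48, a surface ligand on lymphocytes and monocytes, had 0.81, 1.51 and 2.60 on ligated arrays against 0.55, 2.32 and 2.67 on sham arrays. The groups overlapped in both genes. They did not overlap in LCP1, ARHGDIB and CYTIP, named after their values were seen, with differences of 1.56, 0.48 and -1.46. Over all tested probes the share without overlap was 34.7%. ARHGDIB and CYTIP, which differed in direction, were the genes with an unadjusted limma p under 0.05.

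CD68 encodes a lysosomal membrane protein of macrophages that other cells carry at lower levels. It was well above background on all 6 arrays, with levels of -0.33, 0.05 and 0.70 on ligated arrays against -1.68, -0.21 and -0.34 on sham arrays. Ligated arrays 2 and 3 were above all sham arrays, and ligated array 1 lay between sham arrays 2 and 3. The means were 0.14 ± 0.52 in ligated and -0.74 ± 0.81 in sham arrays (SD, n = 3 each). The difference was 0.88 ± 0.46 (SE), and 0.41 without sham array 1. CD68 and IL7R had a Pearson correlation of 0.98 over the 6 arrays, a description of arrays that share slides.

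LGALS3 encodes galectin-3, a lectin that binds galactosides and is made by macrophages and also by smooth muscle cells and fibroblasts. Its levels were 4.25, 4.59 and 4.28 on ligated arrays, against 2.76, 3.29 and 3.25 on sham arrays. All 3 ligated arrays were above all 3 sham arrays, and the array order of the other blood-cell genes was absent within the ligated group, where array 2 was the highest. The means were 4.37 ± 0.19 in ligated and 3.10 ± 0.30 in sham arrays (SD, n = 3 each), a difference of 1.27 ± 0.23 (SE), or 2.42-fold. The other 4 probes, which overlap the first, gave differences of 1.22 to 1.38. LGALS3 was the only one of the 7 genes among those limma called, 1 of 7 higher and 0 of 7 lower beside 5.67% and 2.64% of all tested probes, which says nothing about the set since the genes were chosen from this contrast. The call was lost when ligated array 1, ligated array 2, sham array 2 or sham array 3 was left out.

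Markers of monocytes and macrophages as a list were less separated than LGALS3. Of 20 tested genes other than CD68 and LGALS3, 0 passed by limma in either direction and 3 had an unadjusted p under 0.05, with a median difference of 0.23. Ligated array 3 was the highest ligated array in 18 and sham array 1 the lowest sham array in 17. Of 2 tested galectins other than LGALS3, LGALS4 passed, with a difference of 1.24 ± 0.23 (SE, limma adjusted p = 0.0257). Its levels were -2.64, -2.30 and -2.90 on ligated arrays against -3.88, -3.65 and -4.02 on sham arrays, and its call was lost in 14 of the other settings tried.

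**Figure D3:**
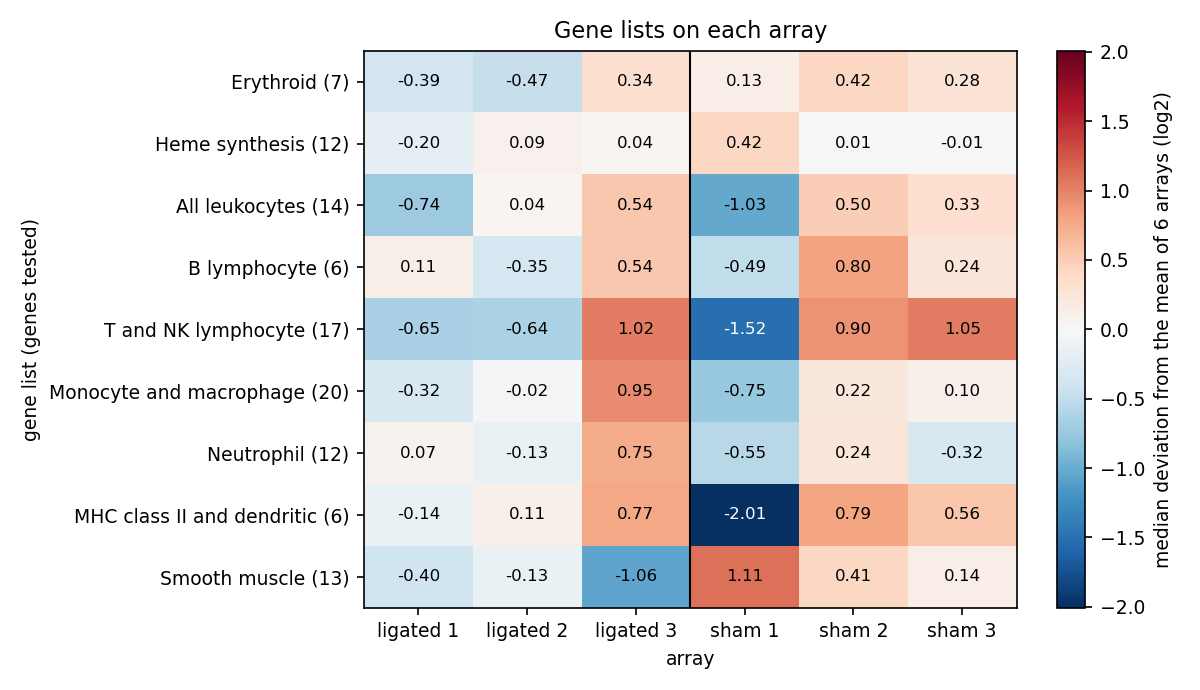
Median over the tested genes of each list of the deviation from the gene's mean over 6 arrays (log2), one column per array with ligated arrays left of sham arrays and the number of genes in parentheses, the 7 described genes left out. The T and NK lymphocyte list is at 1.02 on ligated array 3 and at -1.52 on sham array 1, and the smooth muscle list has the opposite signs, -1.06 and 1.11. On the other arrays both lists have the same sign.

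Smooth muscle markers were lowest on ligated array 3 and highest on sham array 1. Their median deviation from the 6-array mean was -0.40, -0.13 and -1.06 on ligated arrays, against 1.11, 0.41 and 0.14 on sham arrays. The T and NK cell list was at -0.65, -0.64 and 1.02 on ligated arrays, against -1.52, 0.90 and 1.05 on sham arrays. Its sign was opposite to that of the smooth muscle list on ligated array 3 and sham array 1, and the same on the other arrays. Of the 13 tested smooth muscle genes, 0 rose and 2 fell by limma, SMTN by 1.77 ± 0.22 (adjusted p = 0.00801) and DES by 1.11 ± 0.24 (adjusted p = 0.0399) on the log2 scale, with a median of -1.05 over the list. The DES call was lost in 13 of the other settings. The fibroblast list had 3 of 7 tested genes higher by limma (LUM, COL1A1 and COL1A2) and 0 lower, of which COL1A2 was lost without sham array 3 and all 3 after normexp background correction. Its median deviations were 0.90, 0.96 and 0.89 on ligated arrays and negative on every sham array, an order unlike that of the leukocyte lists. The part of these cell types in the differences of the blood-cell genes was not tested.

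**Figure D4:**
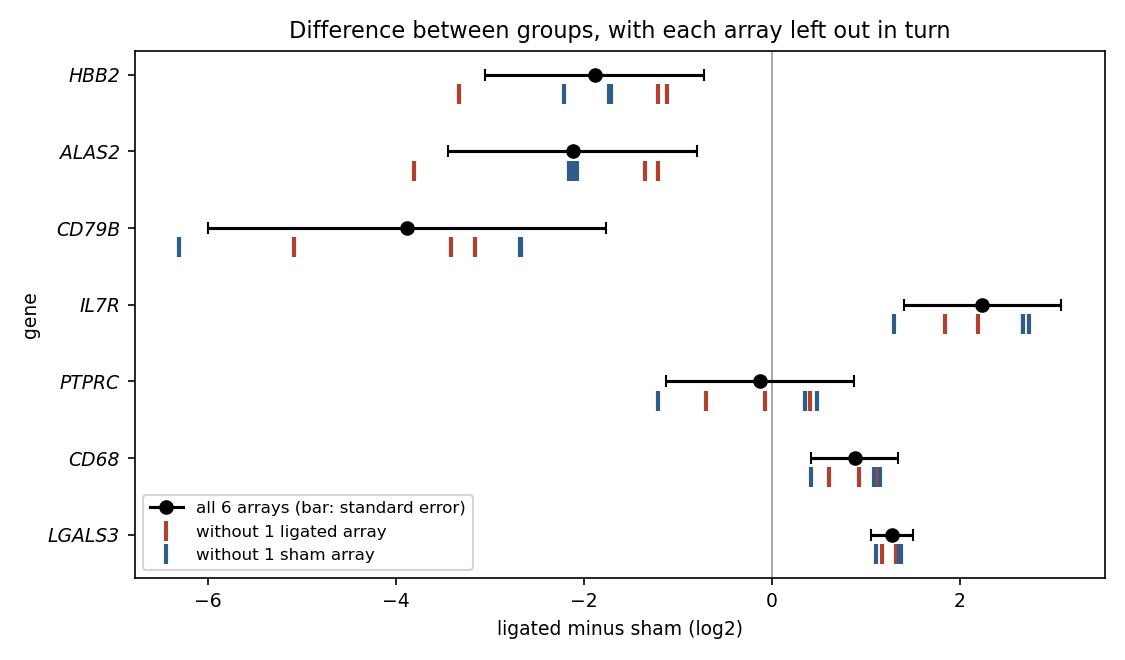
Ligated minus sham difference (log2) of each gene with all 6 arrays (black point, bar for the standard error) and, below each point, with 1 ligated array (red) or 1 sham array (blue) left out. HBB2 runs from -3.33 to -1.12, PTPRC changes sign between -1.21 and 0.48, and LGALS3 stays between 1.10 and 1.37.

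Leaving out single arrays moved the differences of most of the genes. Without ligated array 3 the HBB2 difference was -3.33 and that of ALAS2 -3.80. The HBB2 difference was -1.12 without ligated array 1, and the ALAS2 difference was -1.21 without ligated array 2. Without sham array 1 the CD79B difference was -6.31, and without sham array 2 it was -2.67. The IL7R difference ran from 1.30 to 2.73 and that of CD68 from 0.41 to 1.15.

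The 7 genes fell into different array orders, and the genes nearest to each by Pearson correlation over the 6 arrays, out of 6621 or 6622 named genes well above background on all arrays, are given as a description. HBB2 was nearest to TNFSF10 (0.999), HBA (0.997) and ABHD3 (0.994). ALAS2 was nearest to PDS5A, TSR2 and HBB2, each at 0.98. CD79B was nearest to HSPA12B (0.994), IMPACT (0.988) and DELE1 (0.987). PTPRC was nearest to SAMSN1 (0.997), AOAH (0.994) and BLNK (0.989). AOAH encodes an enzyme of myeloid cells that inactivates bacterial lipopolysaccharide, and its levels were -0.75, 0.24 and 1.08 on ligated arrays against -1.27, 1.21 and 1.18 on sham arrays. IL7R was nearest to TACC3 (0.995), PLD1 (0.989) and ATP1B1 (0.988), and CD68 to PLD1 (0.998) and TACC3 (0.990). LGALS3 was nearest to RAD51AP1 (1.00), POSTN (0.998) and IL1B (0.995), the last of which encodes interleukin 1 beta and had levels of 7.64, 8.24 and 8.02 on ligated arrays against 5.61, 6.43 and 6.35 on sham arrays. Between 21 and 103 named genes passed 0.95 with each of the 7, over 6 arrays of which sham arrays 2 and 3 were close to each other.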

How the data were processed

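Messenger RNA was read on 6 one-colour Agilent arrays. Per the submitters' processing notes, spot signals came from Agilent Feature Extraction 10.7. Its processed signal is, per the file headers, a background-subtracted intensity with no scaling between arrays, and the spot marks (well above background, saturated, outlier) are flags of the kind other. The deposited value table holds log2 values with equal quantiles (array medians of 5.05), and its steps are not given in the sources used here.

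Outlier spots were left out (2 to 19 per array), repeated spots averaged as log2 values, and each array's 75th percentile subtracted. Probes well above background on at least 3 arrays were tested with limma 3.58.1 in R 4.3.3, with two-sided p-values adjusted by Benjamini-Hochberg over every tested probe. The fit was tested on simulated data. Of 43603 probes, 23871 had 1 gene symbol, 52 several and 19680 none, through the files and a symbol table of assembly mOryCun1.1, which gave names only. The probe with the highest mean signal stands for a gene.

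The genes and all gene lists were chosen with earlier results of these data known. Named are the 7 genes, up to 4 passing genes of a list with the smallest p (otherwise up to 2 of the brightest, as values), genes of lists absent from every array, and the 3 genes nearest to each of the 7, of which 1 is not reported here. The number of arrays limits precision. Other settings were background correction (normexp), scaling, filters, variance models, blocks and leaving out each array.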

Additional observations from a re-analysis of the deposited data

How the results depend on the processing

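The count of 2280 probes was 1496 with no filter, 6096 with array weights, 545 with scan day as a block, 587 with sham arrays 2 and 3 averaged, and 0 by limma after normexp background correction (615 at an unadjusted p under 0.05). Only sham array 3 was scanned on another day, so the scan day block is the same fit as leaving that array out. Both are in the counts of settings, and scan day could not be assessed apart from that array. Median centring called 1145 of 2188 higher, against 1555 of 2280, and moved the median of all probes to -0.19, and normexp moved it to 0.21. Leaving out 1 array gave 545 to 2248 probes, with 1199 without ligated array 1, 749 without ligated array 2, 592 without sham array 2 and 545 without sham array 3. Of the 7 genes, 1 was called in the main setting, 2 with array weights, and 0 with normexp, scan day or averaged sham arrays, and 0 to 3 with 1 array left out. Normexp gave differences of 0.36 for ALAS2, -0.39 for CD79B and 0.80 for IL7R, and 0.92 for IL7R when spots of very high background were left out first. The cause was not tested. With 1 array left out, the differences ran from -3.33 to -1.12 for HBB2, -3.80 to -1.21 for ALAS2, -6.31 to -2.67 for CD79B, 1.30 to 2.73 for IL7R, -1.21 to 0.48 for PTPRC, 0.41 to 1.15 for CD68 and 1.10 to 1.37 for LGALS3. Of 99 tested genes in the 10 blood cell lists, the 7 genes aside, 2 were called (MMP9 and HPGDS, of which HPGDS was dim on every sham array), against 14 with array weights, 4 with normexp without spots of very high background, and 0 with normexp, scan day or averaged sham arrays. The count was 0 to 7 with 1 array left out, 7 without ligated array 3, 5 without sham array 1 and 0 without ligated array 2, sham array 2 or sham array 3. The replicate numbers did not pair the arrays (correlations of same-numbered deviations of 0.43, -0.56 and 0.57). With the number as a block 1261 probes, 1 of the 7 genes (IL7R, not LGALS3) and 2 blood cell list genes were called. ALAS2, CD79B, IL7R and PTPRC, which were not well above background on every array, have no value under a filter on all 6 arrays, and their low values on single arrays are bounds. Among the smooth muscle genes, the SMTN call was lost in 1 setting and that of DES in 13.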

Other observations

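Lists of other blood cells held few genes that passed. Of 12 tested neutrophil genes, MMP9 alone passed by limma, with a list median of 0.29. MMP9 is a matrix-degrading protease that neutrophils store and that smooth muscle cells and macrophages also make. Its levels were -1.41, -0.36 and 0.19 on ligated arrays against -3.03, -4.51 and -3.71 on sham arrays, a difference of 3.22 ± 0.52 (SE, adjusted p = 0.0177), and it was well above background on 2 of the 3 sham arrays. S100A9, a calcium-binding protein of neutrophils and monocytes named here after its values were seen, had levels of 1.14, 1.02 and 2.10 on ligated arrays against 0.83, -0.86 and -1.09 on sham arrays. Its binding partner S100A8 had -2.51, -2.47 and 0.55 on ligated arrays against 0.85, -1.92 and -1.58 on sham arrays, and its groups overlapped. Sham array 1 was the highest sham array for all 3 of these genes, unlike most of the list. Over the 12 tested neutrophil genes, sham array 1 was the lowest sham array in 8 and ligated array 3 the highest ligated array in 9. The MMP9 call was lost in 6 of the other settings, among them without ligated array 2, sham array 2 or sham array 3.

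The list of mast cells, basophils and eosinophils had 2 tested genes, too few to describe as a group. HPGDS, the prostaglandin D synthase of mast cells and some macrophages, had levels of -3.83, -3.56 and -3.83 on ligated arrays against -4.83, -5.32 and -5.43 on sham arrays. Each ligated array but no sham array read it well above background, and it was at least 2.29-fold higher in ligated arrays. It passed the filter on low values only through the ligated arrays, so its call by limma (adjusted p = 0.0161) carries no weight of its own, and that call was lost in 10 settings. The mast cell and eosinophil genes MS4A2, PRG3, EPX and IL5RA were not well above background on any array. For MS4A2 and EPX this was read from the brightest of 4 and 5 probes. Of 4 tested platelet genes 0 passed by limma in either direction, 1 had an unadjusted p under 0.05, and the median was 0.22. ITGB3, an integrin chain of platelets that vascular cells also carry, had a difference of 0.74 ± 0.22 (SE, adjusted p = 0.0944). The platelet genes GP1BA and GP5 were not well above background on any array, GP5 by the brightest of its 5 probes.

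The class II genes RLA-DMA and RLA-DMB were highest on sham arrays 2 and 3 and low on sham array 1. Of 6 tested genes of the class II and dendritic cell list, 0 passed by limma and 1 had an unadjusted p under 0.05, with a median of 0.41. RLA-DMA, a chain of the class II peptide loader, had levels of 2.41, 3.92 and 5.36 on ligated arrays against 2.35, 6.86 and 6.74 on sham arrays. Its partner RLA-DMB had 0.02, 1.33 and 2.31 on ligated arrays against -0.68, 3.05 and 3.09 on sham arrays. The differences of these were -1.42 and -0.60. Those of the other tested genes were positive, 0.90 for RLA-DR-ALPHA, 1.12 for CD83, 0.69 for CD1D and 0.13 for CD74, named after their values were seen. CD83 was the gene with an unadjusted limma p under 0.05, and every ligated array was above every sham array for it. Of 5 tested endothelial genes 0 passed by limma and 0 had an unadjusted p under 0.05, with a median of 0.13. CLDN5, a tight junction protein of brain endothelium, had levels of 2.07, 1.20 and 2.95 on ligated arrays against 3.64, 2.83 and 2.66 on sham arrays, and was not lowest on sham array 1. Its ligated minus sham difference was -0.97, whereas that of the brighter gene VWF was 0.41 ± 0.44 (SE). Among the other tested endothelial genes, named after their values were seen, PECAM1 and TEK had positive differences and ESAM a negative one. The list thus had no shared direction.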
